A study of Xenopus tropicalis with 18 samples.

Results

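The hypochord of wild-type Xenopus tropicalis tadpoles was compared between stage 65 and stage 61, with 3 libraries at each stage, 6 of the 18 libraries of the series. Tissue and stage as labelled decided which libraries entered. The study measured RNA in hypochord and coccyx, each cut from frozen tissue by laser capture microdissection, at 4 stages of the tadpole. The 4 hypochord libraries of replicates 1 and 2 share a table of 19921 genes and were tested. The 2 libraries of replicate 3 list 21458 genes under identifiers that do not match and are described apart. Whether a replicate is another animal, a pool or the same animals is not stated, and p-values here reflect only how these libraries vary, which may be technical. Amplification by PCR without molecular identifiers means that a count is not a molecule.

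The urostyle is the rod of bone at the end of a frog's vertebral column, built during metamorphosis out of the coccyx, on the dorsal side, and the hypochord, on the ventral side. The hypochord is a rod of skeletal tissue below the notochord that ossifies while the tail is lost. Metamorphosis is driven by thyroid hormone, which changes gene expression in most tissues of the tadpole. The files do not pair identifiers with gene names. The RefSeq gene table used here gives an Ensembl identifier for 0 of its 28858 genes, so no lookup was possible, which says nothing of whether RefSeq holds these genes. Markers of bone, cartilage, notochord, muscle or blood could therefore not be looked up, and the tissue label was not checked against them. Genes are described by number, direction and level, and 4 of them by identifier. In such microdissected bulk samples, fewer cells of a type and less RNA per cell cannot be told apart.

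Total counts were 4941137 and 5602507 in stage 61 and 2741662 and 1918822 in stage 65 hypochord (replicates 1 and 2), and 14862183 and 10593181 in replicate 3. In the share of its most abundant genes, 1 library stood apart. In replicate 2 of stage 61 the 10 most abundant genes held 33.7% of the counts, against 14% to 20.4% in the other 5 hypochord libraries. Its TMM factor, which rescales the total count so that most genes match between libraries, was 0.598, against 0.922 to 1.30 in the other 3 tested hypochord libraries. The coccyx library of the same stage and number was also high, at 31.5%. Values without it are given for the tests, the counts of abundant genes, the genes counted at one stage only and the correlation between tissues. For the library measures, replicate 2 of both stages was left out together. Replicate 3 of stage 61 hypochord stood apart in another way, with the most counts but the fewest genes. At an equal depth of 1918822 counts it had 8822 genes, against 10720 to 11869 in the other 5 hypochord libraries.

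No gene passed the test across all genes in hypochord. Among strongly expressed genes, more were at least 4-fold lower at stage 65 than higher, an excess that was smallest without replicate 2 of stage 61. With edgeR's quasi-likelihood test, 0 of 10959 genes had an adjusted p under 0.05 (0%), and the smallest adjusted p was 0.127. At an unadjusted p under 0.05 there were 1020 genes (9.31%), of which 565 were lower at stage 65 (5.16%) and 455 higher (4.15%). DESeq2 called 179 of the 8409 genes for which it gave an adjusted p (2.13%), 111 lower (1.32%) and 68 higher (0.809%). Of the 10959 genes limma voom called 0, with 738 at an unadjusted p under 0.05. Of the 179 DESeq2 calls, 162 had no overlap of the stages. Over all genes tested, both stage 65 libraries lay below both stage 61 libraries in 2060 (18.8%) and above them in 1857 (16.9%). Fits without a hypochord library leave a single one at that stage and have other bases. Without replicate 2 of stage 61, edgeR tested 11765 genes and DESeq2 gave an adjusted p for 9712. For DESeq2 the base was 9427 without replicate 1 of stage 61 and 8447 without replicate 2 of stage 65. Without replicate 2 of stage 61 hypochord, edgeR called 6 genes, each lower at stage 65, and DESeq2 called 85, 49 lower and 36 higher. DESeq2 called 385 without replicate 1 of stage 61 hypochord and 74 without replicate 2 of stage 65 hypochord.

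The split by direction depended on the scaling. With total counts in place of TMM, the median of all genes moved from -0.01 to 0.40 on the log2 scale, and 262 genes were lower and 666 higher at that unadjusted threshold. With TMM but leaving out replicate 2 of stage 61 hypochord there were 359 lower and 458 higher, and leaving out replicate 2 of stage 65 hypochord 344 and 293. Changes below from the tested fit with TMM are relative to the median gene. Those between single libraries need not be. In replicate 3 hypochord the median log2 ratio was 0.29 by total counts and -0.23 with TMM.

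Among genes with many reads, more were much lower at stage 65 than much higher. CPM (counts scaled to a common library total) is not per length, so genes are ranked here by reads and not by transcripts. Of 867 genes averaging 7 or more in log2 CPM over the 4 libraries, 35 (4.04%) were at least 4-fold lower at stage 65 without overlap of the stages, and 5 genes (0.577%) were at least 4-fold higher. Over all tested genes the same shares were 4.44% lower (487 genes) and 3.16% higher (346 genes). Without replicate 2 of stage 61 hypochord the counts at this level were 22 lower and 17 higher, and without replicate 1 of that stage they were 65 and 44. They were 56 and 6 without replicate 1, and 49 and 11 without replicate 2, of stage 65. With a single library at a stage, non-overlap is easier to meet, so these counts and the 35 and 5 follow unlike rules. Among these counts the excess of lower genes was smallest without replicate 2 of stage 61. With total counts in place of TMM and all 4 libraries, there were 29 lower and 11 higher, and over all tested genes 329 and 536. With TMM but without replicate 2 of stage 61 hypochord, higher genes outnumbered lower ones over all tested genes. With TMM and all 4 libraries, lower genes also outnumbered higher ones at each level below 7. Below a mean log2 CPM of 3 the shares were 7.29% lower and 6.12% higher. From 3 to 5 they were 2.24% and 1.21%, and from 5 to 7 they were 1.69% and 0.646%. The share of lower genes at 7 or more was near that of all genes.

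The 35 genes had log2 fold changes from -6.90 to -2.23. Their median level was 1030 and 2490 TMM-normalised CPM in replicates 1 and 2 of stage 61, against 99.8 and 140 CPM at stage 65. Together they held 9.81% and 14.8% of the counts at stage 61 and 0.71% and 1.57% at stage 65. They were chosen by these values, which are thus a description. Of the 35, 34 had an unadjusted p under 0.05 with edgeR (smallest adjusted p of 0.175), and 30 were among the DESeq2 calls. Of all 867 genes at this level, 59 (6.81%) were lower at that unadjusted p. The choice by the same libraries favours these test counts, so they too are a description. The 5 genes that were higher at stage 65 held 0.281% and 0.0988% of the counts at stage 61 and 1.36% and 1.23% at stage 65.

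**Figure D1:**
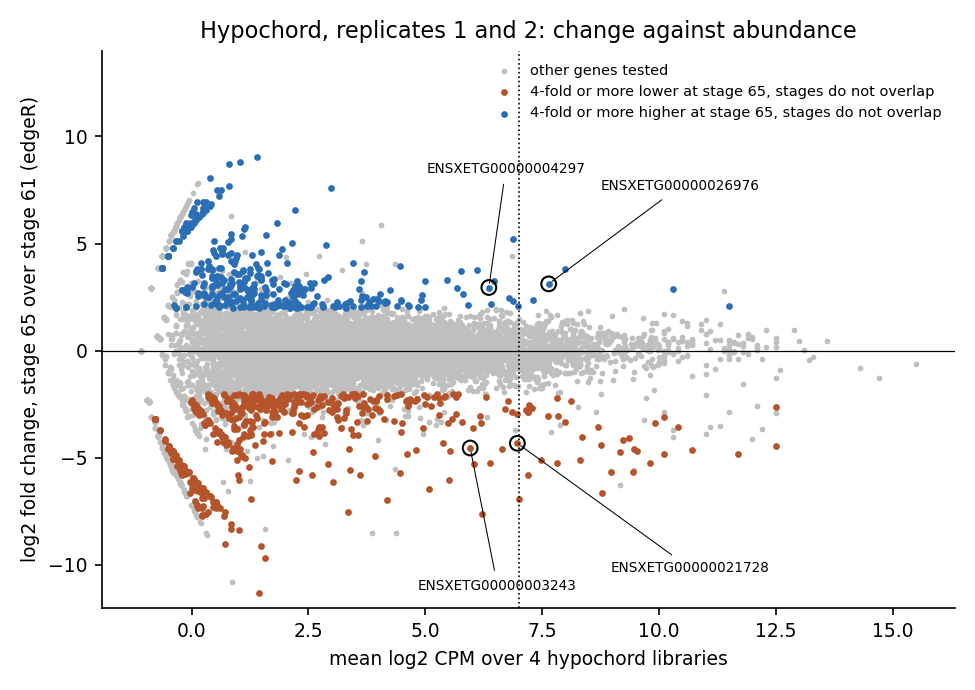
Log2 fold change of stage 65 over stage 61 in hypochord (vertical axis, edgeR) against the mean log2 CPM over the 4 libraries of replicates 1 and 2 (horizontal axis), 1 point a gene. Coloured genes differ at least 4-fold without overlap of the stages; right of the dotted line, at a mean log2 CPM of 7, there are 35 lower and 5 higher, and circles mark the 4 genes given by identifier.

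Coccyx libraries shared the scaling and the fit, but their levels were not used to choose the 35 genes. These genes were also lower at stage 65 in coccyx. Their coccyx log2 fold change was below 0 for 35 of 35 (median -1.95), against 55.1% of all 867 genes at this level (median -0.07). Both stage 65 coccyx libraries lay below both stage 61 coccyx libraries for 29 of the 35 (82.9%), against 18.1% of the 867. Over all 10959 genes that share was 14.7%, and 16.5% lay above. The coccyx stage test itself called 0 genes with edgeR (0%), with 264 lower (2.41%) and 108 higher (0.985%) at an unadjusted p under 0.05. Replicate 2 of stage 61 coccyx carried part of the difference. Measured from it, 35 of 35 were lower in either stage 65 library, and measured from replicate 1, 29 and 30 of 35 were lower, against 47.6% and 61.6% of the 867 genes. The median log2 ratio from replicate 1 was -1 and -1.14, and from replicate 2 it was -2.43 and -2.32. Deviations of same-numbered hypochord and coccyx libraries correlated at stage 61 (r = 0.36 across 10959 genes) and at stage 65 (r = 0.22), so the tissues are not fully independent here.

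**Figure D2:**
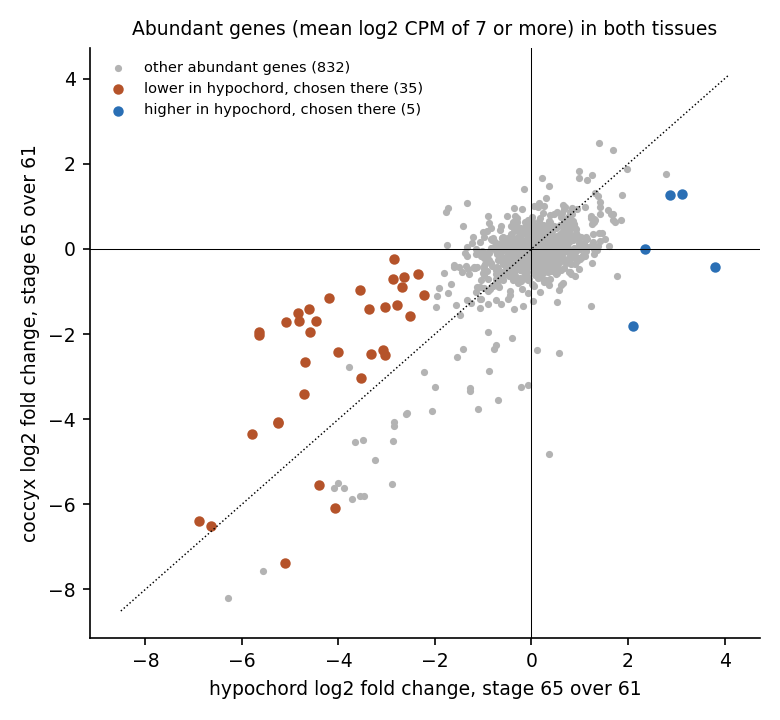
Log2 fold change of stage 65 over stage 61 in coccyx (vertical axis) against that in hypochord (horizontal axis) for the 867 genes with a mean hypochord log2 CPM of 7 or more; the dotted line marks equal change. The 35 genes chosen for being lower in hypochord all lie below 0 in coccyx, most of them nearer to 0 than in hypochord, while the 5 chosen for being higher lie on both sides.

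The 5 genes higher in hypochord showed no common direction in coccyx. In coccyx, 2 of the 5 were higher at stage 65 without overlap and 0 were lower without overlap, and their median coccyx log2 fold change was 0.00. With 5 genes, this is a description only.

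Whether the stage difference itself differed between the tissues was tested in the same model. With edgeR's quasi-likelihood test 0 of 10959 genes passed (0%, smallest adjusted p of 1), with 353 at an unadjusted p under 0.05 (3.22%), of which 189 had a more negative change in hypochord (1.72%) and 164 a more positive one (1.5%). DESeq2 called 2 genes (0.0182%), both with a more negative change in hypochord. With the hypochord and coccyx libraries of the same stage and number as a block, edgeR called 1, also more negative in hypochord (adjusted p of 0.0481). Of the 35 genes above, 32 had a more negative log2 fold change in hypochord than in coccyx, which the choice by hypochord values favours. Over the 2879 genes averaging 5 or more in log2 CPM, the changes in hypochord and coccyx were correlated with Pearson's r = 0.638 (Spearman's rho = 0.419), and over all 10959 genes with r = 0.351 (rho = 0.285). Without replicate 2 of stage 61 hypochord, r was 0.242 over 3077 genes at that level and 0.124 over all 11765 genes then tested. Without the other hypochord libraries, one at a time, r at that level was 0.607 to 0.632, so its size rests largely on that library. These are correlations across genes, given as a description, in libraries that share replicate numbers.

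The 4 genes given by identifier were chosen for no overlap of the stages in hypochord and a small p. Their hypochord changes are thus favoured by the choice, as are differences from coccyx in the same direction. ENSXETG00000021728 had the smallest p of all genes. In hypochord it stood at 661 and 458 TMM-normalised CPM (3342 and 1532 counts) at stage 61 and at 27.7 and 28.4 CPM (70 and 71 counts) at stage 65. The stages lie far apart and the replicates of stage 65 are close. Its log2 fold change was -4.32 ± 0.49 (SE), with an unadjusted p of 1.16e-05 and an edgeR adjusted p of 0.127 (range over 17 alternatives 3.5e-15 to 0.793). It passed the threshold in 4 of these, among them DESeq2 and the fit without replicate 2 of stage 61 hypochord. In coccyx it had 244 and 273 CPM at stage 61 and 51.6 and 35.9 CPM at stage 65, a smaller difference in the same direction (log2 fold change -2.56 ± 0.45, SE). The difference between the tissues, -1.75, did not pass (edgeR adjusted p of 1).

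ENSXETG00000003243 in hypochord had 449 and 181 CPM at stage 61 and 16.6 and 10.4 CPM at stage 65. In coccyx it had 63.4 and 35.2 CPM at stage 61 and 0.595 and 0.211 CPM at stage 65, the latter from 3 and 1 counts. The gene was thus higher in hypochord than in coccyx in each of the 4 same-numbered pairs of libraries, and lower at stage 65 in both tissues. Its log2 fold change was -4.54 ± 0.65 (SE) in hypochord and -6.82 ± 0.80 (SE) in coccyx. The difference between the tissues, 2.28, was in the direction of a larger change in coccyx and did not pass (edgeR adjusted p of 1). In hypochord the edgeR adjusted p was 0.175 (range over 17 alternatives 1.9e-08 to 0.793).

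ENSXETG00000004297 and ENSXETG00000026976 stand for the opposite direction. ENSXETG00000004297 in hypochord had 20.4 and 40.6 CPM at stage 61 and 288 and 182 CPM at stage 65, without overlap, which the choice required. Its log2 fold change was 2.95 ± 0.53 (SE), with an edgeR adjusted p of 0.217 (range over 17 alternatives 0.000101 to 0.793). In coccyx it went from 56.1 and 34.6 CPM to 78.6 and 103 CPM, also without overlap (log2 fold change 1 ± 0.49, SE). The difference between the tissues, 1.95, did not pass the edgeR threshold.

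ENSXETG00000026976, one of the 5 genes above, had 70 and 66.6 CPM at stage 61 and 716 and 473 CPM at stage 65 in hypochord. Its log2 fold change was 3.12 ± 0.63 (SE), with an edgeR adjusted p of 0.287 (range over 17 alternatives 0.000185 to 0.793). In coccyx it had 36.3 and 105 CPM at stage 61 and 226 and 121 CPM at stage 65, without overlap but closer together. The difference between the tissues, 1.82, did not pass the edgeR threshold.

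**Figure D3:**
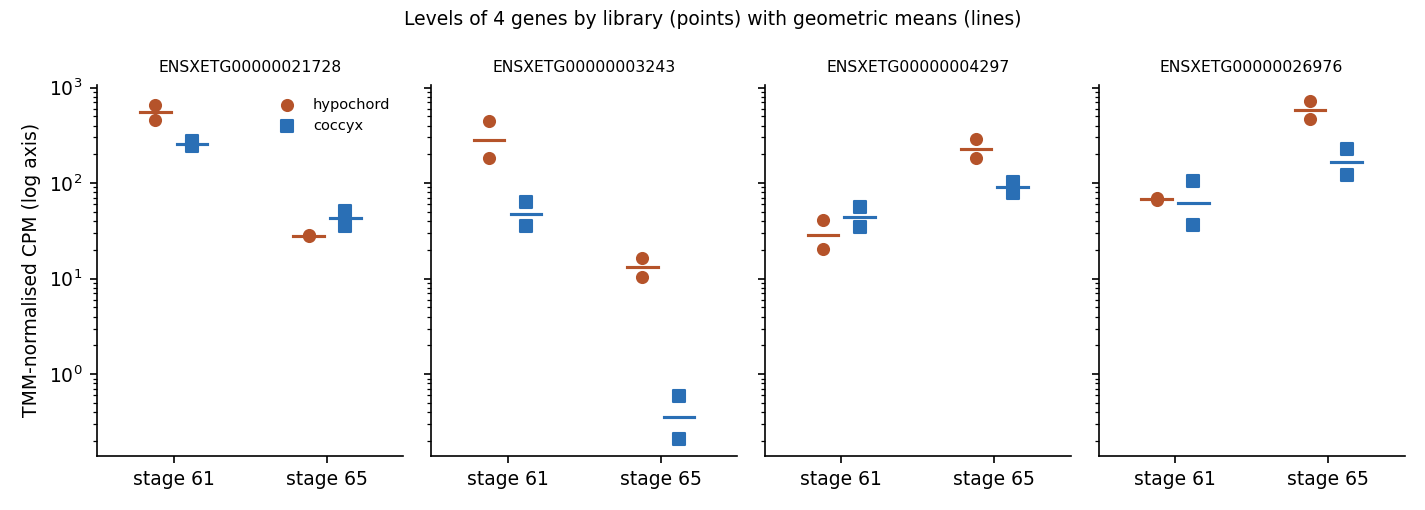
TMM-normalised CPM on a log axis of the 4 genes given by identifier, at stages 61 and 65, with 1 point a library (replicates 1 and 2) and lines at geometric means; circles are hypochord and squares coccyx. In hypochord the stages are apart for each gene, which the choice of the genes required. In the leftmost panel the levels go from 661 and 458 to 27.7 and 28.4 CPM.

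Few genes were counted at one stage only. With at least 10 counts in both libraries of a stage and 0 in both of the other, 17 genes were found at stage 61 alone (0.0853% of 19921) and 2 at stage 65 alone (0.01%). The stage 65 libraries held fewer counts, so a floor of 3 counts was 1.09 and 1.56 CPM there against 0.607 and 0.535 CPM at stage 61, and absence at stage 65 is the weaker statement. Each number rests on all 4 libraries. With 1 left out, fewer libraries have to meet the rule, so each number can only stay or rise. Without replicate 2 of stage 61 hypochord they were 90 and 13, and without any other library 51 to 117 and 13 to 44. The highest pooled level among the 17 genes was 16.7 CPM. In coccyx, 14 of the 17 were counted in both stage 65 libraries and 0 of the 17 were without any coccyx count. The 2 genes found at stage 65 alone were counted in all 4 coccyx libraries.

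The replicates of stage 61 differed from each other by as much as some pairs across stages did. Between single hypochord libraries, genes with at least 10 TMM-normalised CPM in one of them were compared on the log2(CPM + 1) scale. Replicates 1 and 2 differed at least 4-fold in 10.6% of these genes at stage 61 and in 5.52% at stage 65. The 4 pairs across stages differed in 5.91% to 14.4%, and the 2 highest of them, 12.5% and 14.4%, included replicate 2 of stage 61. The 100 genes with most reads overlapped least, by 52 to 56, in the 3 pairs with that library, and by 70 to 78 in the others.

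In replicate 3 the 2 stages lay at the wide end of the hypochord pairs. There is 1 library a stage, so this comparison has no replicate check. By total counts, 1450 of 7478 genes (19.4%) were at least 4-fold higher at stage 65 and 456 (6.1%) at least 4-fold lower, 25.5% together, against 5.82% to 25.4% in the 4 pairs across stages of replicates 1 and 2 on the same scale. With TMM-normalised totals there were 1047 higher (14.3%) and 709 lower (9.66%), 23.9% together, above each of the other hypochord pairs. The coccyx pair of replicate 3 differed in 6.55% by total counts and 6.66% with TMM. The SD of the log2 ratio was 1.91 in hypochord and 1.06 in coccyx by total counts.

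Replicate 3 also had many genes without a count at stage 61. In its stage 65 hypochord library, 1855 genes had at least 10 counts while the stage 61 library had 0. The other way round there were 179, although the stage 61 library was the deeper one. As that library was low in genes for its depth, these numbers need not reflect the stage, which was not tested. In the 4 pairs across stages of replicates 1 and 2 the numbers ran from 38 to 142 and from 185 to 353. These numbers are not on one scale, as replicate 3 lists 21458 genes against 19921 and was deeper. A floor of 3 counts was 0.283 CPM in its stage 65 library, against 1.09 and 1.56 CPM in replicates 1 and 2. In coccyx the replicate 3 pair had 360 and 224 such genes, against 69 to 119 and 63 to 101 in the other pairs across stages. The 1450 genes higher at stage 65 held 1.22% of the counts at stage 61 and 10.9% at stage 65. Of the 831 genes whose log2(CPM + 1) averaged 7 or more, 24 were at least 4-fold lower at stage 65 (2.89%) and 30 higher (3.61%) by total counts, or 41 and 17 with TMM. The direction of this split thus turned with the scale. It did so too in the pairs of replicate 2 of stage 61 with stage 65, which had 53 and 58 lower and 104 and 103 higher by total counts, and 71 and 99 lower and 52 and 25 higher with TMM. In the pairs of replicate 1 of stage 61 there were more lower than higher genes on both scales. The 100 genes with most reads overlapped by 71.

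**Figure D4:**
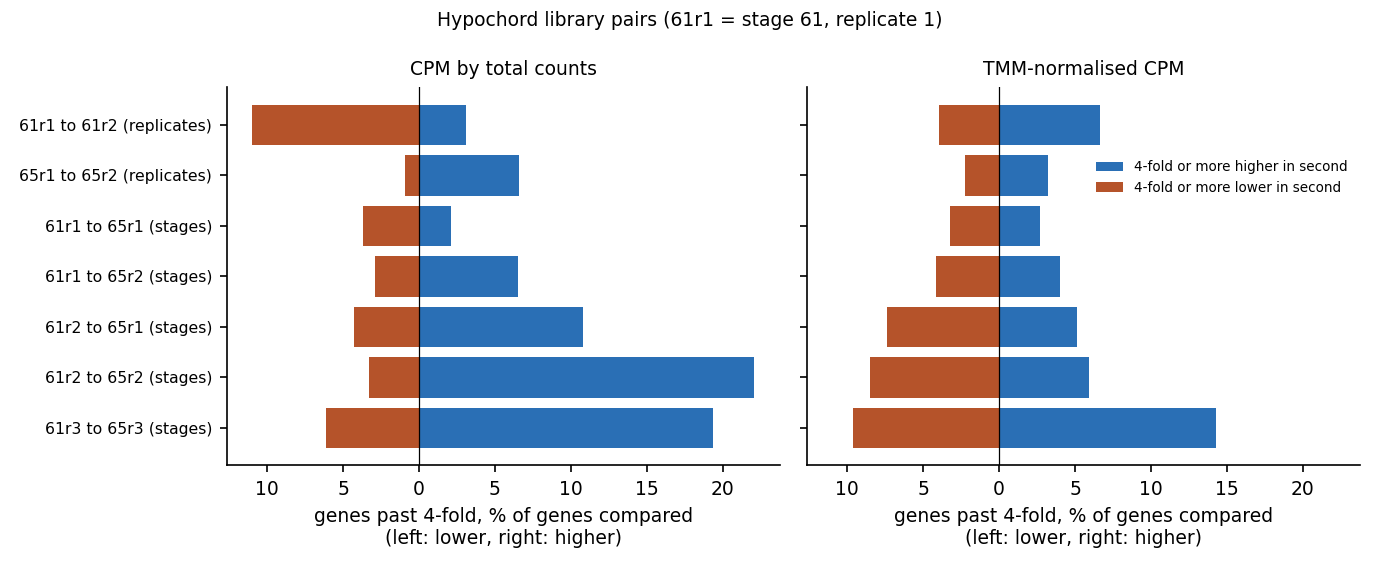
Share of genes at least 4-fold higher (right) or lower (left) in the second library of each pair of hypochord libraries, in percent of genes with at least 10 CPM in one of them, by total counts and with TMM; labels give stage and replicate. The direction of the larger share changes with the scale in 4 of the 7 pairs, and the replicate 3 pair differs in 25.5% (total counts) and 23.9% (TMM) of genes.

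Measures that need no shared identifiers were set side by side over all 6 hypochord libraries. At an equal depth of 1918822 counts, 10937, 10720 and 8822 genes were detected at stage 61 (replicates 1 to 3) and 11125, 11003 and 11869 at stage 65. The stages did not overlap at this depth, but most of the mean difference of 1170 genes came from replicate 3. They overlapped at 500000 counts, where replicate 1 had 9462 genes at stage 61 and 9421 at stage 65, and with at least 5 counts a gene, where it had 8634 and 8469 (exact permutation p = 0.333 for each). At 1918822 counts the mean difference was 236 without replicate 3. An exact permutation test of the stage labels within table, two-sided, gave p = 0.167, the smallest that 12 arrangements allow (adjusted p = 0.334 over 4 measures, Benjamini-Hochberg). Coccyx also had more genes at stage 65, with a mean difference of 543.

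The 10 most abundant genes took 17.3%, 33.7% and 14.4% at stage 61 and 20.4%, 14% and 17.4% at stage 65 of all counts, with overlap (exact permutation p = 0.667, adjusted p = 0.667). How evenly counts were spread was measured as an effective gene number (from Shannon's entropy, exponentiated), which was 945, 304 and 841 at stage 61 and 759, 1310 and 1020 at stage 65 (exact permutation p = 0.5, adjusted p = 0.667). Without replicate 2 of both stages the mean differences of both measures changed sign, to 3.11 percentage points and -4.04 genes. Leaving out replicate 2 of stage 61 alone was not tried for these measures.

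The last 37 lines of the tables had like levels in both kinds of table (Spearman's rho 0.968 across lines). In hypochord they held 0.94%, 0.57% and 0.959% of the counts at stage 61 and 0.994%, 1.34% and 1.45% at stage 65, higher in 3 of 3 libraries and without overlap (exact permutation p = 0.167, adjusted p = 0.334). In coccyx the stages overlapped, with means of 1.82% and 1.85%. This measure was chosen after its values were seen.

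**Figure D5:**
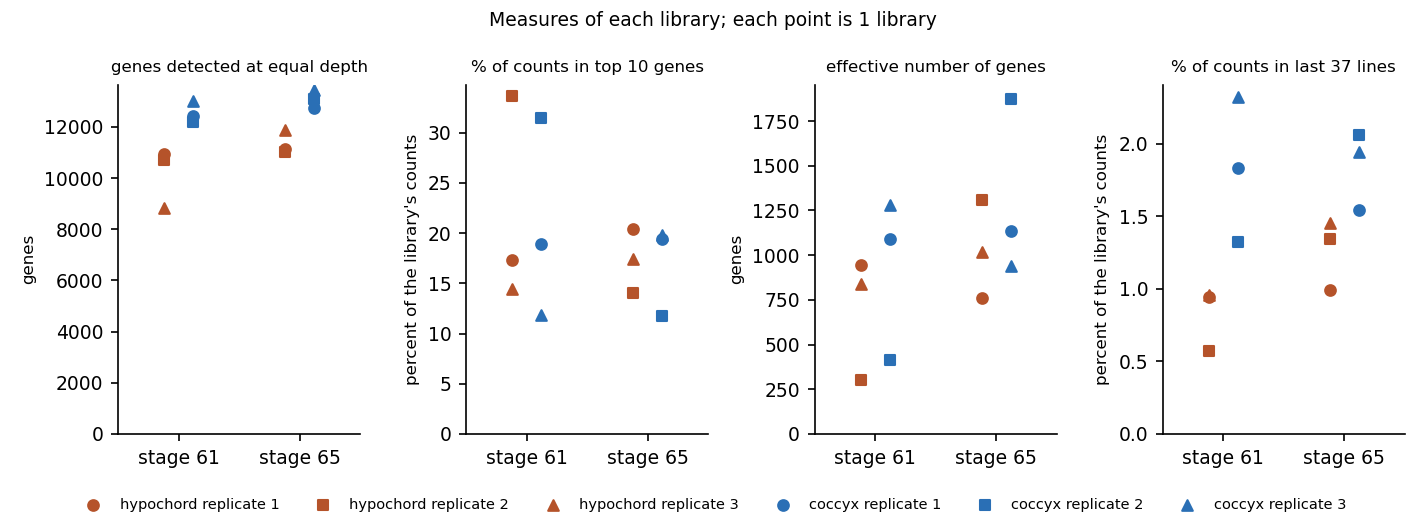
Genes detected at equal depth, share of the 10 most abundant genes in percent of counts, effective number of genes, and share of counts in the last 37 lines, for stages 61 and 65 of hypochord and coccyx; each point is 1 library and its shape the replicate number. Hypochord stages do not overlap in the first and last panels, but genes detected at 500000 counts, not drawn here, do overlap between the stages. Replicate 2 of stage 61 hypochord is highest in the second panel, at 33.7%.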

How the data were processed

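The deposited files hold raw, whole-number read counts, one library to a file, not normalized, per the file headers and, for replicate 3, whose files have no header, the values alone. HTSeq 0.13.5, cutadapt 1.8.1 and FastQC are named, with no role, per the submitters' processing notes. Aligner, genome build, annotation and strand setting were "not given in the sources used here", and genes that overlap or have near-identical copies are uncertain. Per the labels' protocols, cDNA was made from very small amounts of RNA and amplified by PCR; floors of 3 counts cover counting error only.

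Identifiers in the replicate 3 tables rise by 1 at each of 21457 steps and show no relation to the other tables over 11315 shared identifiers (Spearman's rho 0.0115), so that replicate was kept apart. No libraries held identical values.

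The tested fit (edgeR 4.0.16, R 4.3.3) used 8 libraries, stages 61 and 65 of both tissues in replicates 1 and 2, with TMM, filterByExpr by group, 1 coefficient for each of 4 groups, robust quasi-likelihood tests and Benjamini-Hochberg adjustment. It left 4 residual degrees of freedom, and the common dispersion corresponded to a biological CV of 0.55. Coccyx libraries entered to share the estimate of the spread. The threshold was an adjusted p of 0.05. Each SE was approximated by dividing the fold change by the root of its F statistic. DESeq2 1.42.0 and limma 3.58.1 were alternatives. The code was tested on simulated data.

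Named genes were the first 2 in each direction by size among called genes whose stages did not overlap and whose average log2 CPM reached 3; as none passed, the smallest unadjusted p decided. The planned marker and pathway lists need gene symbols and were not run. Members, lists and tests were chosen with earlier results of these data known.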

Additional observations from a re-analysis of the deposited data

How the results depend on the processing

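For hypochord stage 65 against stage 61, edgeR called 0 genes with DESeq2 size factors, TMMwsp, the stage 56 libraries added, or the 4 hypochord libraries alone, and limma voom called 0. The count was 49 with no filter on low counts, 1 with at least 10 counts in each of the 4 hypochord libraries, and 179 with DESeq2; leaving out single libraries gave 0 to 6. The cause was not tested. For the difference between the tissues the count was 2 with DESeq2, 1 with the pair of tissues as a replicate block, and 0 under the other alternatives, leave-outs included. Across stages, same-numbered hypochord libraries did not deviate together (r = 0.03), so numbers were not read as pairs, and a replicate block by number within tissue called 0 genes in both comparisons. The 4 genes given by identifier kept their direction under 17 alternatives each. Their choice for no overlap of the stages in the same libraries favours this, so it is no check.

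The difference in detected genes was 1130 at 500000 counts and 1100 with at least 5 counts, with overlap of the stages in both. Genes counted at stage 65 alone numbered 20 with at least 5 counts, 1 with at least 20, and 5 with at most 1 count at the other stage; those at stage 61 alone numbered 57, 3 and 38. In replicate 3, genes higher at stage 65 numbered 728 with a pseudocount of 5 CPM, 2701 with no filter and 2488 past 2-fold; genes lower numbered 235 and 1244 with that pseudocount and past 2-fold, and 709 with TMM.

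Alternatives added after seeing the data gave 22 to 65 abundant genes lower and 6 to 44 higher when single hypochord libraries were left out, and 11 higher with total counts. Leaving out single hypochord libraries, DESeq2 called 74 to 385 genes, and genes counted at stage 65 alone numbered 13 to 44 and at stage 61 alone 51 to 117; with fewer libraries, fewer have to meet the rule for those. Each replicate number was also left out at both stages. The difference in detected genes then ran from 236 to 1660, and in the share of the 10 most abundant genes from -8.34 to 3.11 points. That in the effective number ran from -4.04 to 592, and in the share of the last 37 lines from 0.275 to 0.632 points.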

Other observations

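The 35 abundant genes that were lower in stage 65 hypochord were also read at earlier stages, in libraries outside the comparison, with 1 library a stage and tissue under the same identifiers. They held 4.70% of the counts in stage 56 hypochord and 28% in stage 58 hypochord, against 9.81% and 14.8% at stage 61. In coccyx they held 1.60% at stage 56 and 5.71% at stage 58, then 3.76% and 6.84% at stage 61 and 2.36% and 2.55% at stage 65. The stage 65 hypochord shares, 0.71% and 1.57%, were below those of the single stage 56 and stage 58 hypochord libraries. That they were below the stage 61 shares follows from the choice of the genes. Choosing genes low in these stage 65 libraries favours the comparison with stages 56 and 58 too.

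ENSXETG00000021728 had 2985 counts in stage 56 and 5566 in stage 58 hypochord, and ENSXETG00000003243 had 1332 and 2116. ENSXETG00000004297 had 695 counts in stage 56 hypochord but 3 in stage 58 hypochord, and ENSXETG00000026976 had 914 and 29. In coccyx at those stages ENSXETG00000004297 had 851 and 509 counts and ENSXETG00000026976 had 1164 and 326. These are counts of single libraries and not scaled to their totals.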
